A study of Homo sapiens with 4 samples.

Results

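The genes described here are 57 genes of mitosis and the G2/M transition, chosen as a fixed list of gene symbols and read from every non-control probe that carries one of those symbols, out of 27309 genes that could be tested on the arrays. All 57 were found, on 74 probes, and all 57 were well above background in both channels of all 4 arrays. A2780s is an established human epithelial ovarian cancer (EOC) cell line. RNA from 2 GALNT3 KO clones and from 2 clones labelled GALNT3/T6 KO was hybridized with Cy5, each clone on its own Agilent whole human genome array, against Cy3-labelled RNA of a mock-transfected A2780s clone (Ctrl), and the labels give no dye swap. GALNT3 had been knocked out with CRISPR/Cas9 and a homology-directed repair plasmid under puromycin selection. A Cre vector was then transfected to excise the puromycin gene. GALNT6 was later targeted in GALNT3 KO clones with a lentiviral shRNA under puromycin selection, and the labels call this step a knockdown. Transduction and this further round of selection go together with that group. Each group is 2 clones of 1 cell line, so p-values measure the spread between these clones. The paper writes of a corresponding Ctrl clone and also of corresponding Ctrls, so whether all 4 arrays shared 1 Ctrl is left unsettled.

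Progress through mitosis is driven by the kinase CDK1 with its A- and B-type cyclins, which CDC25 phosphatases switch on. Kinesins and other microtubule proteins then build the spindle, kinetochores attach chromosomes to it, the spindle checkpoint holds the anaphase-promoting complex (APC/C) back until all are attached, and a contractile ring divides the cell. Most of these genes are transcribed late in the cell cycle under the MuvB complex with MYBL2 and FOXM1, through a promoter element called CHR (cell cycle genes homology region) that often lies close to CCAAT boxes bound by NF-Y. Their mRNA level in a culture therefore follows the share of cells in G2 and M as well as the level per cell, and in RNA from whole cultures fewer cells of one kind and less RNA per cell cannot be told apart. The comparison bears on the question whether the proliferation machinery changed in clones in which GALNT3, or GALNT3 and GALNT6, had been targeted.

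The promoter stretches below belong to the members whose direction differed between the groups or was lower in both, the patterns on which the results turn, together with CCNB2 and KIF18A, a strong fall and a strong rise. Each runs 5′ to 3′ on the gene's strand from base -120 to base 25 around the first start listed by RefSeq (GRCh38.p14), and capitals mark the letters TTTGAA or TTCGAA (CHR) and CCAAT, read on either strand. The first 5 genes were lower in GALNT3 KO and higher on the GALNT3/T6 KO-labelled arrays.
CDCA3 (chr12:6851262-6851406, minus strand): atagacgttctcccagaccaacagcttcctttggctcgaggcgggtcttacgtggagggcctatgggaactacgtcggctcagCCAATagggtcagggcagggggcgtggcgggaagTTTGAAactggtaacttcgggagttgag
PTTG1 (chr5:160421735-160421879, plus strand): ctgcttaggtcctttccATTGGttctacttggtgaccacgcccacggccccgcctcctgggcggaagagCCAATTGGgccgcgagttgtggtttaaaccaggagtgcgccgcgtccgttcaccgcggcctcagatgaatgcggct
NUF2 (chr1:163321834-163321978, plus strand): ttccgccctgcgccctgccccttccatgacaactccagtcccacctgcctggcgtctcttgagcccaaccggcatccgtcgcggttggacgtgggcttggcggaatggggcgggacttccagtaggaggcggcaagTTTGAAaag
HMMR (chr5:163460512-163460656, plus strand): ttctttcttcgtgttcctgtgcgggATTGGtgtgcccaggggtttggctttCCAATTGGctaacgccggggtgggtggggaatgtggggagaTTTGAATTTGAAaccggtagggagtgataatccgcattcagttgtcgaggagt
ANLN (chr7:36389742-36389886, plus strand): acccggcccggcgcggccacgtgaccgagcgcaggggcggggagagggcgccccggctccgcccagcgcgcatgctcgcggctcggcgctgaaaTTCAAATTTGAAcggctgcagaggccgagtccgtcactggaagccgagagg
The next 4 genes were lower in both groups (RefSeq promoter sequence was not at hand for BIRC5 and RACGAP1, the other members with this pattern).
AURKB (chr17:8210201-8210345, minus strand): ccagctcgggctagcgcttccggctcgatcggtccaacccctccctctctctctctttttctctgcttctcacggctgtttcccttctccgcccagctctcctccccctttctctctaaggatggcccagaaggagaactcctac
KIF14 (chr1:200620727-200620871, minus strand): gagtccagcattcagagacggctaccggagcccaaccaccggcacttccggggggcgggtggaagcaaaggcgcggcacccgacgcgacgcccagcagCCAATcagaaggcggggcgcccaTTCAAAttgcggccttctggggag
CENPF (chr1:214603075-214603219, plus strand): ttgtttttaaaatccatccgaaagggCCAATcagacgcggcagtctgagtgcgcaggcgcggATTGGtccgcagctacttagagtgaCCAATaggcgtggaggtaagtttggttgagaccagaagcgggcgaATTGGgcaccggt
NCAPH (chr2:96335646-96335790, plus strand): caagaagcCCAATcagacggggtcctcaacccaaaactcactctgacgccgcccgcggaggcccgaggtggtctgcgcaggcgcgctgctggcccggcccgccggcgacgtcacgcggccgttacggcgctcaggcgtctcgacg
CCNB2 fell in GALNT3 KO, and KIF18A rose on the GALNT3/T6 KO-labelled arrays.
CCNB2 (chr15:59105026-59105170, plus strand): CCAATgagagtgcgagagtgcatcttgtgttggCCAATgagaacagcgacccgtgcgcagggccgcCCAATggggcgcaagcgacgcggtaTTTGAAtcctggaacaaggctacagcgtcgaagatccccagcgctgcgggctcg
KIF18A (chr11:28108132-28108276, minus strand): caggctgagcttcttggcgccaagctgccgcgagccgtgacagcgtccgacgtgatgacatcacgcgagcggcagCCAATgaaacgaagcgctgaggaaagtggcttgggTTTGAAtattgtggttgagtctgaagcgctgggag
In HMMR a pair of CHR matches stood side by side at -28 and -22, downstream of CCAAT matches at -95, -69 and -66, the last 2 being the same CCAATTGG letters read on both strands. CCNB2 had CCAAT at -120, -87 and -54 and CHR at -29. KIF18A had CCAAT at -45 and CHR at -10, CDCA3 had them at -37 and -3, and in ANLN the pair of CHR matches at -26 and -20 stood with no CCAAT.

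Promoters were found for 49 of the 57 members, as 61 windows of 300 bases because some genes have several listed starts. CHR letters were present in 41 of the 61 windows (67.2%) and in 16.4% of all 35116 promoter windows. CCAAT letters were present in 44 windows (72.1%) against 34.6% of all, and both together in 33 (54.1%) against 6.4%. Counted by gene, 38 of 49 members had CHR letters in some window (77.6%, against 19.5% of all 27305 genes). CCAAT letters were found in 39 of them (79.6%, against 39.7% of all). The CHR letters were found in 13 of the 17 members with a promoter that were lower in GALNT3 KO, and in 25 of the 32 that were not called there. For the GALNT3/T6 KO-labelled arrays the counts were 9 of 11 members that were higher, 6 of 11 that were lower and 23 of 27 that were not called. A match to these letters is a description of the sequence and not a measured binding site.

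GALNT3 and GALNT6 check the labels. On the GALNT3 KO arrays neither channel had the GALNT3 probe well above background, so it checks nothing there. On the GALNT3/T6 KO-labelled arrays, where alone the probe was well above background, its log2 ratio was 4.80 and 5.08 (mean 4.94), higher in the KO channel. That goes against the label, and the group is therefore named by its label throughout. No p-value is given for GALNT3, because the test pools the spread of arrays where the probe was dim. GALNT6 was at -0.47 and -0.38 in GALNT3 KO (adjusted p = 0.044) and at -0.66 and -0.69 on the GALNT3/T6 KO-labelled arrays (adjusted p = 0.0033). These are limma's tests against Ctrl. By limma's test between the groups the GALNT6 difference was -0.25 (SE 0.11, adjusted p = 0.21) and was not called. A further fall of GALNT6 mRNA beyond that in GALNT3 KO was therefore not shown. Markers of the labelled tissue moved with the second group, as GALNT3 did. Of 8 epithelial and Mullerian markers 6 were higher there, KRT18 by 5.68 and KRT19 by 4.81 on the log2 scale. None of the 8 was called in GALNT3 KO. Of 4 fibroblast markers 2 were higher and 2 lower, of 4 leukocyte markers 1 was lower, and of 2 endothelial markers 1 was higher on those arrays. Of all genes 24.8% were higher and 23.1% lower there. With so few genes the fibroblast, leukocyte and endothelial counts say nothing on cell type. Whether any marker list differed from all genes was not tested. The part of the marker shifts in the mitotic results was not tested either. Between 86.9% and 93.8% of spots were well above background in a channel, none was saturated, and the SD of log2 ratios over all genes was 0.39 and 0.44 on the GALNT3 KO arrays and 0.96 and 0.97 on the others. With so few arrays the precision is limited by their number.

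In the GALNT3 KO clones 22 of the 57 mitotic genes were lower than in Ctrl, 0 were higher and 35 were not called. A log2 ratio below 0 means less signal in the KO channel, and calls rest on limma's p after Benjamini-Hochberg adjustment over all genes, with a limit of 0.05. The 22 are 38.6% of the members, against 6.42% of all genes tested that were lower and 4.78% that were higher. At an unadjusted p of at most 0.05, 35 were lower and 1 was higher, while of all 27309 genes 4653 were lower and 5063 higher. The median log2 ratio was -0.51 on replicate 1 and -0.65 on replicate 2, with 49 members below 0 on both arrays (38.4% of all genes were), while the median of all genes was 0.013 and 0.025. Members above 0 on both arrays were CKS2, CDC25B, KIF18A and HJURP. By the criterion of the paper, an unadjusted p of at most 0.05 and at least 1.5-fold, 27 were lower (6.39% of all genes) and 0 were higher (3.21%). The number of calls depended on the arrays that entered the fit. Leaving out either GALNT3 KO array leaves 1 array in the group, so the calls of that fit decide nothing about single members. The median of the members was then -0.65 without replicate 1 and -0.51 without replicate 2. When only the 2 GALNT3 KO arrays were fitted, 44 members were lower and 1 was higher. Calls rose over the whole array in that fit, to 4898 genes lower and 4605 higher of 27309. With Agilent's own log ratios 4 members were lower, beside 397 of all genes.

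The same list had no common direction on the GALNT3/T6 KO-labelled arrays. Compared with Ctrl, 11 members were higher (19.3%, against 24.8% of all genes) and 13 were lower (22.8%, against 23.1% of all), shares near those of the whole array. The median log2 ratio was -0.29 on replicate 1 and 0.07 on replicate 2. There were 19 members above 0 on both arrays (44.8% of all genes), 23 below 0 on both (39.9% of all), and 15 that differed in sign between the clones. The paper's criterion gave 6 higher (14.6% of all) and 11 lower (17.3% of all). The direction depended on the clone, with a median of 0.07 without replicate 1 of this group and -0.29 without replicate 2. When only the 2 arrays of the group were fitted, 8 members were higher and 8 lower. Of all 27309 genes 3975 were higher and 4330 lower in that fit. There HJURP, KIF20A and NUF2 were no longer called higher, nor CCNA2, BUB1B, KIF4A, CENPF and NCAPH lower.

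Set against GALNT3 KO, 20 members were higher on the GALNT3/T6 KO-labelled arrays (35.1%, against 11.8% of all genes) and 2 were lower (3.5%, against 11.8% of all). The median difference over the 57 members was 0.49, and for 32 of them both of these arrays lay above both GALNT3 KO arrays (30.0% of all genes). The paper's criterion gave 23 higher (13.2% of all) and 4 lower (13.7% of all). Among the members, ANLN and HMMR alone kept their calls when a GALNT3 KO array was left out. The median difference was then 0.54 without GALNT3 KO replicate 1 and 0.46 without replicate 2. It was 0.70 without replicate 1 of the GALNT3/T6 KO-labelled arrays, and 0.22 without replicate 2. The Ctrl RNA is in the other channel of every array, and after between-array normalization the Ctrl signal of the members differed between the groups of arrays by a median of 0.03 on the log2 scale, within a range of -0.22 to 0.36. This holds for the members and not for every gene. The Ctrl signal of GALNT3 was 6.19 and 6.30 on the GALNT3 KO arrays, not well above background. It was 7.63 and 7.65 on the others, well above background.

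**Figure D1:**
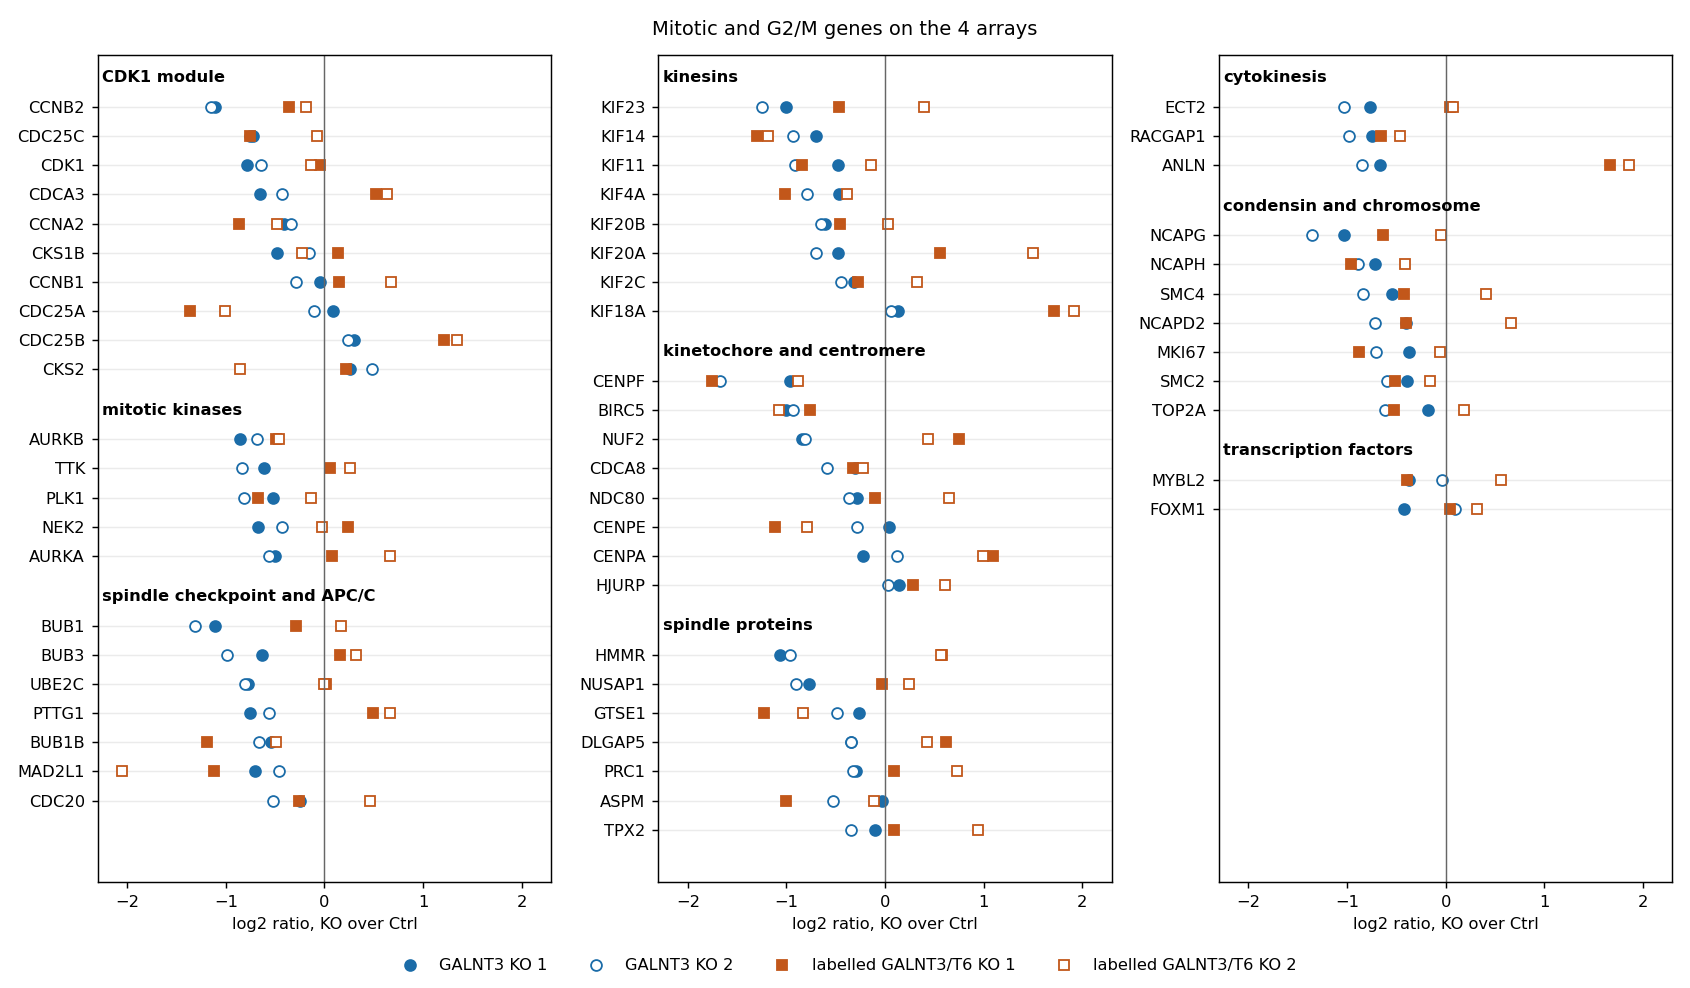
Log2 ratio of KO over Ctrl for each of the 57 members on each of the 4 arrays, grouped by machinery and ordered by the GALNT3 KO mean. Circles are the 2 GALNT3 KO clones and squares the 2 clones labelled GALNT3/T6 KO, filled for replicate 1 and open for replicate 2. Nearly all circles lie below 0, while squares lie on both sides, with ANLN and KIF18A far to the right and MAD2L1 and CENPF far to the left.

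The calls of the first 2 comparisons, which both use Ctrl RNA, were combined. Of the members, 5 were lower in GALNT3 KO and higher on the GALNT3/T6 KO-labelled arrays (8.8%, against 1.0% of all genes tested). Another 6 were lower in both (10.5%, against 4.15% of all). A further 11 were called lower in GALNT3 KO alone, 6 were called higher and 7 lower on the GALNT3/T6 KO-labelled arrays alone, and 22 were called in neither. The members with opposite calls were ANLN, HMMR, NUF2, PTTG1 and CDCA3, and those lower in both were AURKB, KIF14, CENPF, BIRC5, RACGAP1 and NCAPH. Over all genes these shares were 1.27% lower in GALNT3 KO alone, 21.1% higher and 18.1% lower on the GALNT3/T6 KO-labelled arrays alone, and 49.6% in neither, against 19.3%, 10.5%, 12.3% and 38.6% of the members. No member had the reverse pair of calls, which 0.853% of all genes had. The joint shares also carry the larger share of members lower in GALNT3 KO (38.6%, against 6.42% of all genes). Of the 22 members lower in GALNT3 KO, 6 were also lower on the GALNT3/T6 KO-labelled arrays and 5 were higher. Of the 1754 genes lower in GALNT3 KO, 1134 were also lower on those arrays and 274 were higher. With median centring in place of loess CDCA3 was at 0.32 on the GALNT3/T6 KO-labelled arrays and was no longer called there (adjusted p = 0.13).

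**Figure D2:**
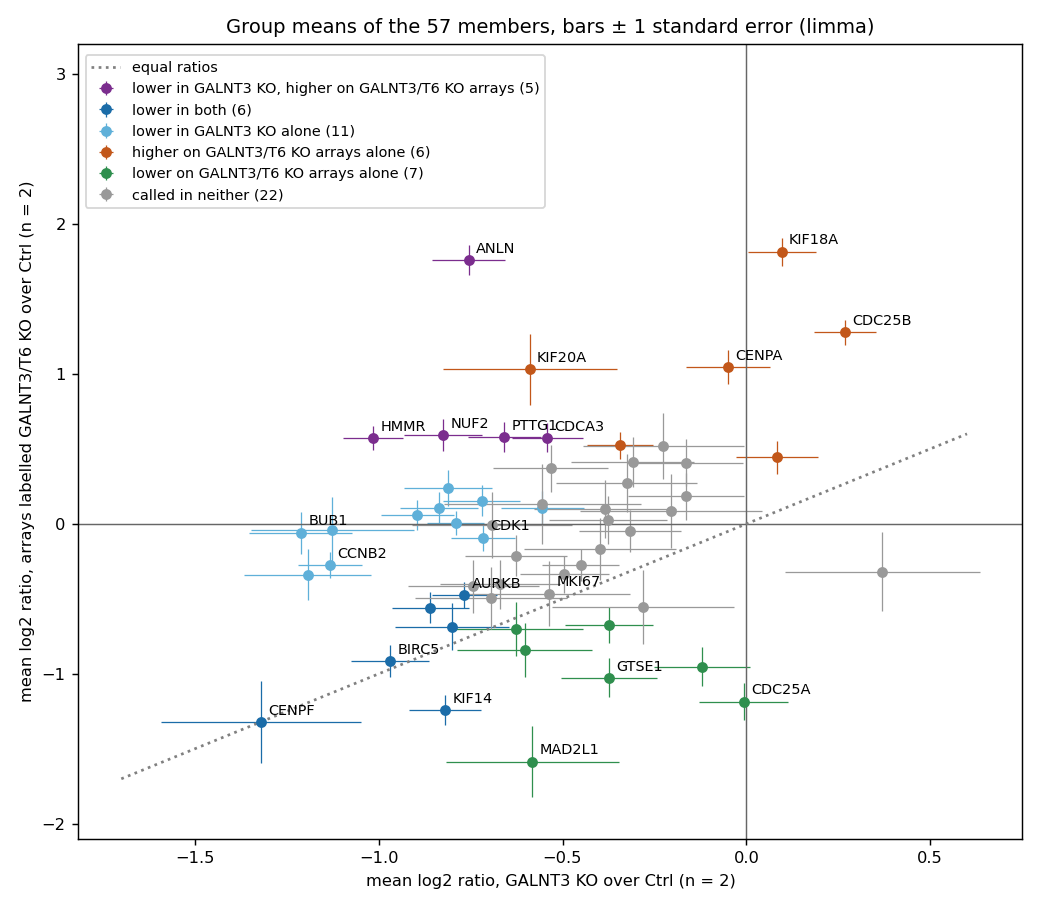
Mean log2 ratio over Ctrl in GALNT3 KO (horizontal axis) against the mean on the GALNT3/T6 KO-labelled arrays (vertical axis) for the 57 members, n = 2 arrays each, with bars of 1 standard error from limma and colours by the calls of both comparisons. The 5 members with opposite calls lie at upper left, and 46 of the 57 points lie above the dotted line of equal ratios.

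Of the 10 genes of the CDK1 module, 3 were lower in GALNT3 KO (CCNB2, CDK1 and CDCA3) and none was higher. On the GALNT3/T6 KO-labelled arrays, CDC25B and CDCA3 were higher and CDC25A and CCNA2 lower. CCNB2, a B-type cyclin, was read by a probe at chr15:59417139-59417198 (hg19, plus strand) and had log2 ratios of -1.11 and -1.15 on the GALNT3 KO arrays, and of -0.36 and -0.19 on the others. The groups did not overlap, and the mean in GALNT3 KO corresponds to a 2.19-fold fall (SE 0.09 on the log2 scale, adjusted p = 0.012). CDK1 itself, on a probe whose ends lie at chr10:62552004-62553650 and which therefore spans an intron, had -0.79 and -0.65 in GALNT3 KO and -0.04 and -0.14 on the other arrays. It fell by 0.72 in GALNT3 KO (adjusted p = 0.025) and was not called against Ctrl on the GALNT3/T6 KO-labelled arrays (adjusted p = 0.42). CCNB1, the other B-type cyclin, did not follow CCNB2. Its ratios were -0.04 and -0.29 in GALNT3 KO and 0.14 and 0.67 on the others, and it was called in no comparison (adjusted p = 0.48, 0.089 and 0.15).

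The CDC25 phosphatases went separate ways on the GALNT3/T6 KO-labelled arrays. CDC25B had 1.22 and 1.34 there, with 0.30 and 0.24 in GALNT3 KO, so that all 4 arrays were above 0 and the groups did not overlap. Its rise of 1.28 over Ctrl is 2.43-fold (SE 0.08, adjusted p = 6.04e-04). CDC25A had -1.36 and -1.01 on the same arrays and 0.09 and -0.10 in GALNT3 KO, a 2.27-fold fall against Ctrl (SE 0.12, adjusted p = 0.0021) and a difference of -1.18 from GALNT3 KO (adjusted p = 0.011). A second CDC25A probe gave a smaller fall against Ctrl, at -0.62 (adjusted p = 0.013), and a difference from GALNT3 KO of -0.33 that was not called (adjusted p = 0.26). CDC25C was not called in any comparison, with -0.73, -0.76, -0.76 and -0.07 on the 4 arrays in order. CDCA3, which takes part in the degradation of a CDK1 inhibitor at mitotic entry, had -0.65 and -0.43 in GALNT3 KO and 0.52 and 0.63 on the others. It was lower in the first group (adjusted p = 0.042), higher in the second (adjusted p = 0.0093), and the difference of 1.12 was called as well (95% interval 0.76 to 1.47, adjusted p = 0.0067). CKS2, a small CDK1 subunit, stood out by the spread between clones, at 0.26 and 0.48 in GALNT3 KO but 0.21 and -0.85 on the GALNT3/T6 KO-labelled arrays.

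On their brightest probes all 5 mitotic kinases were below 0 on both GALNT3 KO arrays (a second probe of PLK1, described with the members read by several probes, was above 0), and 3 were called lower (AURKB, TTK and NEK2). AURKB is the catalytic subunit of the chromosomal passenger complex. It had -0.85 and -0.68 in GALNT3 KO (adjusted p = 0.023) and -0.49 and -0.46 on the GALNT3/T6 KO-labelled arrays (adjusted p = 0.012), and its difference between groups was not called (0.29, 95% interval -0.04 to 0.62). BIRC5 (survivin), which targets the same complex to the centromere, had -1.0 and -0.94 in GALNT3 KO and -0.76 and -1.07 on the others. Its mean fall was 1.96-fold in GALNT3 KO and 1.89-fold on the GALNT3/T6 KO-labelled arrays (adjusted p = 0.022 and 0.0031), and the groups overlapped. The third member of the complex on the list, CDCA8 (borealin), was below 0 on all 4 arrays, from -0.22 to -0.59, and was not called. TTK, the kinase that starts the spindle checkpoint, had -0.61 and -0.83 in GALNT3 KO and 0.05 and 0.26 on the others, a called difference of 0.87 (adjusted p = 0.017). AURKA, which organizes the spindle poles, was called only in the comparison of the groups, with -0.51 and -0.56 in GALNT3 KO against 0.08 and 0.66 (difference 0.90, SE 0.22, adjusted p = 0.047).

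In the spindle checkpoint and APC/C list, BUB1, BUB3, UBE2C and PTTG1 were lower in GALNT3 KO, 4 of 7, while MAD2L1 and BUB1B were lower and PTTG1 higher on the GALNT3/T6 KO-labelled arrays. The probes of BUB3 differed in sign in GALNT3 KO, as given with the members read by several probes. BUB1, a kinetochore kinase of the checkpoint, had -1.11 and -1.31 in GALNT3 KO and -0.29 and 0.17 on the others. It fell 2.32-fold in GALNT3 KO (SE 0.14, adjusted p = 0.023), and it was not called on the other arrays (adjusted p = 0.75). UBE2C, the ubiquitin-conjugating enzyme of the APC/C, had -0.78 and -0.80 in GALNT3 KO and 0.02 and -0.01 on the others, with the clones of each group close together. MAD2L1, the checkpoint protein that sequesters CDC20, behaved in another way. It had -0.70 and -0.46 in GALNT3 KO, where it was not called (adjusted p = 0.15), and -1.12 and -2.05 on the GALNT3/T6 KO-labelled arrays, the lowest value of any member. The mean there is a 3.00-fold fall (SE 0.23, adjusted p = 0.0063). BUB1B, which joins MAD2L1 in the checkpoint complex, had -0.54 and -0.66, then -1.19 and -0.49 (adjusted p = 0.095 and 0.020). PTTG1, or securin, which the APC/C destroys to release sister chromatids, had -0.76 and -0.56 in GALNT3 KO and 0.49 and 0.67 on the others. It was lower in the first group (adjusted p = 0.033) and higher in the second (adjusted p = 0.0099), with a difference of 1.23 (95% interval 0.87 to 1.60). CDC20, the target of the checkpoint, was called in no comparison, at -0.24, -0.53, -0.25 and 0.46.

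Of the 9 machinery lists, the 8 kinesins had the widest range on the GALNT3/T6 KO-labelled arrays, where their means ran from -1.24 to 1.81. KIF18A, a plus-end motor that dampens chromosome movements at the metaphase plate, had 1.71 and 1.92 there and 0.13 and 0.06 in GALNT3 KO. That is a 3.52-fold rise over Ctrl (SE 0.09, adjusted p = 3.19e-04), and the difference from GALNT3 KO was 1.72 (95% interval 1.38 to 2.06, adjusted p = 0.0018). Its probe reads across a splice junction, with ends at chr11:28045342-28056937 on the minus strand. KIF20A, which carries the passenger complex to the central spindle, had -0.48 and -0.70 in GALNT3 KO and 0.56 and 1.5 on the others, a rise of 1.03 over Ctrl (adjusted p = 0.023) although the clones differed by 0.94. KIF14, which acts with citron kinase in cytokinesis, was the kinesin that fell in both, with -0.70 and -0.93 in GALNT3 KO and -1.30 and -1.18 on the others (adjusted p = 0.025 and 9.94e-04). KIF23 had -1.0 and -1.25 in GALNT3 KO (2.18-fold, adjusted p = 0.047) and -0.47 and 0.39 on the others, where its direction differed between the clones. KIF4A had -0.46 and -0.79, then -1.02 and -0.39, and was lower on the GALNT3/T6 KO-labelled arrays (adjusted p = 0.032). KIF11, KIF20B and KIF2C were called in no comparison.

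Of the 8 kinetochore and centromere genes, 3 were lower in GALNT3 KO (CENPF, NUF2 and BIRC5), while on the GALNT3/T6 KO-labelled arrays 3 were higher (CENPA, HJURP and NUF2) and 3 lower (CENPF, CENPE and BIRC5). CENPA, the histone variant that marks the centromere, had -0.22 and 0.12 in GALNT3 KO and 1.09 and 0.99 on the others. It rose 2.06-fold over Ctrl on those arrays (SE 0.11, adjusted p = 0.0026). HJURP, the chaperone that loads CENPA, was called higher at 0.28 and 0.61 (mean 0.44, adjusted p = 0.030), with 0.14 and 0.03 in GALNT3 KO. The call of HJURP was made again in 8 of 17 alternatives, and its mean was 0.06 with Agilent's own log ratios (adjusted p = 0.68) and 0.28 without replicate 2 of the GALNT3/T6 KO-labelled arrays (adjusted p = 0.13). CENPE, a kinesin that moves chromosomes along the spindle, had 0.04 and -0.28 in GALNT3 KO and -1.11 and -0.79 on the others. With CDC25A it was a member called lower on the GALNT3/T6 KO-labelled arrays than in GALNT3 KO (difference -0.83, adjusted p = 0.036). CENPF, a large protein of the outer kinetochore, had -0.97 and -1.67 in GALNT3 KO and -1.76 and -0.89 on the others. Both means were a 2.50-fold fall, but the adjusted p in GALNT3 KO was 0.0499 and the clones of each group differed by 0.70 and 0.87. A second CENPF probe was called in neither group, with means of -0.61 and -0.69 (adjusted p = 0.12 and 0.053). NUF2 and NDC80 form 1 microtubule-binding complex. NUF2 had -0.84 and -0.81 in GALNT3 KO and 0.75 and 0.44 on the others, called in each comparison (adjusted p = 0.026, 0.011 and 0.0044). NDC80 had -0.28, -0.37, -0.10 and 0.65 and was called in none.

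All 7 spindle proteins were below 0 on both GALNT3 KO arrays, and HMMR and NUSAP1 were called lower. HMMR, which binds microtubules and helps to place the spindle, had -1.07 and -0.96 in GALNT3 KO and 0.58 and 0.56 on the others. It fell 2.02-fold in the first group (adjusted p = 0.013), rose 1.49-fold in the second (adjusted p = 0.0056), and differed 3.01-fold between them (SE 0.12, adjusted p = 0.0016). NUSAP1, a microtubule bundler, had -0.77 and -0.91 in GALNT3 KO (adjusted p = 0.026) and -0.03 and 0.24 on the others. DLGAP5, which stabilizes spindle fibres at kinetochores, was at -0.34 and -0.35 in GALNT3 KO, not called, and at 0.62 and 0.43 on the others, where it was higher (adjusted p = 0.0095). With Agilent's own log ratios the mean of DLGAP5 there was 0.07 and was not called (adjusted p = 0.69). GTSE1, a microtubule-binding protein, ran the other way, with -0.26 and -0.49 in GALNT3 KO and -1.22 and -0.83 on the GALNT3/T6 KO-labelled arrays, a 2.04-fold fall (adjusted p = 0.0040). TPX2, PRC1 and, on its brightest probe, ASPM were called in no comparison.

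On their brightest probes all 3 cytokinesis genes were lower in GALNT3 KO. ANLN (anillin), the scaffold of the contractile ring, had -0.66 and -0.85 in GALNT3 KO on a probe at chr7:36492587-36492646. It had 1.66 and 1.85 on the GALNT3/T6 KO-labelled arrays. The fall in the first group was 1.69-fold (adjusted p = 0.028) and the rise in the second 3.39-fold (adjusted p = 4.02e-04). The difference of 2.51 (95% interval 2.15 to 2.88, adjusted p = 8.81e-04) was the largest of any member. ECT2, the exchange factor that activates RhoA at the division plane, had -0.76 and -1.03 in GALNT3 KO (adjusted p = 0.022) and 0.05 and 0.07 on the others. Another ECT2 probe was lower in GALNT3 KO as well (-1.01, adjusted p = 0.030). A further probe was not called there (-0.14, adjusted p = 0.30) and was higher on the GALNT3/T6 KO-labelled arrays (0.37, adjusted p = 0.024). RACGAP1, which forms centralspindlin with KIF23, had -0.74 and -0.98, then -0.66 and -0.46, and was lower in both (adjusted p = 0.025 and 0.013). A second RACGAP1 probe was lower in GALNT3 KO (-0.77, adjusted p = 0.033) and not called on the GALNT3/T6 KO-labelled arrays (-0.28, adjusted p = 0.12).

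Of the 7 condensin and chromosome genes, NCAPG and NCAPH were lower in GALNT3 KO, and NCAPH alone was called on the GALNT3/T6 KO-labelled arrays. Between the groups 0 were called by limma (1 was higher at an unadjusted p of at most 0.05). NCAPG, a condensin subunit, had -1.03 and -1.35 in GALNT3 KO (2.28-fold, adjusted p = 0.032) and -0.63 and -0.05 on the others. NCAPH, the subunit that bridges the condensin core, had -0.71 and -0.89, then -0.96 and -0.41 (adjusted p = 0.046 and 0.022). MKI67, which encodes the proliferation marker Ki-67, had -0.37 and -0.70 in GALNT3 KO and -0.88 and -0.05 on the others. It was below 0 on all 4 arrays but was called in no comparison (adjusted p = 0.16, 0.14 and 0.92), and the 95% interval of its group difference ran from -0.74 to 0.89. The transcription factors on the list were not called either. FOXM1 had -0.43, 0.10, 0.04 and 0.32 on the 4 arrays, and MYBL2 had -0.38, -0.04, -0.39 and 0.56. The 95% interval of the mean in GALNT3 KO was -0.58 to 0.25 for FOXM1 and -0.86 to 0.45 for MYBL2, which leaves a change of up to these sizes undetected.

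**Figure D3:**
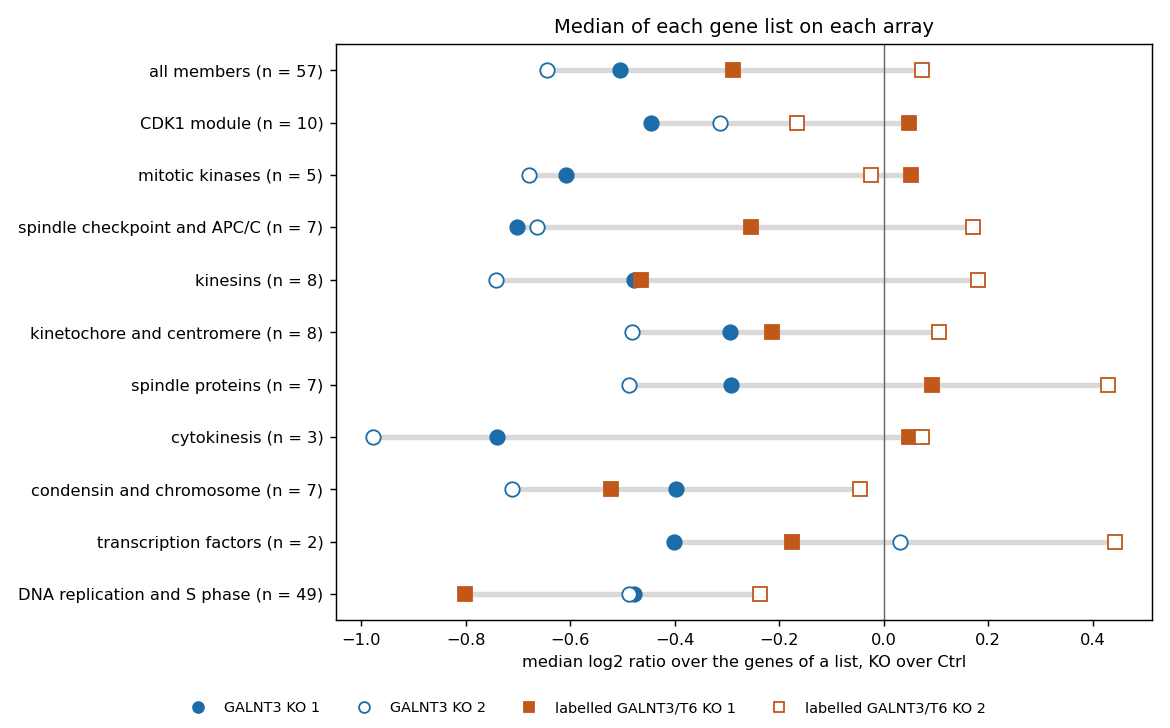
Median log2 ratio over the genes of each machinery list on each array, for all 57 members, the 9 lists and the 49 genes of DNA replication and S phase. Circles are GALNT3 KO and squares the GALNT3/T6 KO-labelled arrays, filled for replicate 1 and open for replicate 2, and the grey bar spans the 4 medians. The medians of all members are -0.51, -0.65, -0.29 and 0.07, and those of the S phase list -0.48, -0.49, -0.80 and -0.24.

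The clones of the second group were not alike. Replicate 2 of the GALNT3/T6 KO-labelled arrays lay above replicate 1 for 46 of the 57 members (80.7%), with a median gap of 0.35, whereas over all genes 51% were higher in replicate 2 and the median gap was 0.01. The gap exceeded 1.5-fold for 21 members in either direction. Upwards it was widest for NCAPD2, a condensin subunit (-0.40 and 0.66), and for MYBL2 and KIF20A, given above. In the opposite direction stood CKS2, MAD2L1 and CKS1B (0.14 and -0.23). The GALNT3 KO clones were closer, with a median gap of -0.14, a gap over 1.5-fold for 1 member (CENPF), and 15 members higher in replicate 2 (26.3%, against 49.1% of all genes). Genes outside the list moved with this split, since GAPDH had log2 ratios of -0.12 and 1.14 and GUSB of -0.01 and 0.90 on the GALNT3/T6 KO-labelled arrays. Their part in the gap was not tested, and with 1 array a clone the gap has no test of its own.

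Several probes read 12 of the members, and they gave the same sign in GALNT3 KO for 10 of the 12. For PLK1, the kinase that triggers mitotic entry, the brighter probe had -0.52 and -0.82 in GALNT3 KO and the other 0.14 and 0.83, so no direction can be given for PLK1 there. BUB3, a checkpoint adaptor, had 4 probes. The brightest, with ends at chr10:124922305-124924582, had -0.64 and -0.99 in GALNT3 KO (adjusted p = 0.032), and the probe at chr10:124917262-124917321 had -0.50 and -0.53 (adjusted p = 0.046). The remaining probes lay above 0, at 0.45 and 0.52 for chr10:124924177-124924236 and at 0.18 and 0.21 for chr10:124913612-124913671. On the GALNT3/T6 KO-labelled arrays all 4 BUB3 probes were above 0. The probes at chr10:124924177-124924236 and chr10:124917262-124917321 were called higher there (0.90 and 0.73, adjusted p = 0.0033 and 0.0047). CKS1B, ECT2 and SMC4 had probes of both signs on those arrays. A CKS1B probe other than the brightest was called lower there (-0.76 and -1.08, adjusted p = 0.0043). For ASPM, whose brightest probe was not called, the second probe was lower in GALNT3 KO (-0.72 and -1.02, adjusted p = 0.026). It was also lower on the GALNT3/T6 KO-labelled arrays (-0.84 and -0.63, adjusted p = 0.0068). For CDCA3, CENPF, RACGAP1, NEK2, CDC25A and KIF11 the probes had equal signs in both comparisons with Ctrl.

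**Figure D4:**
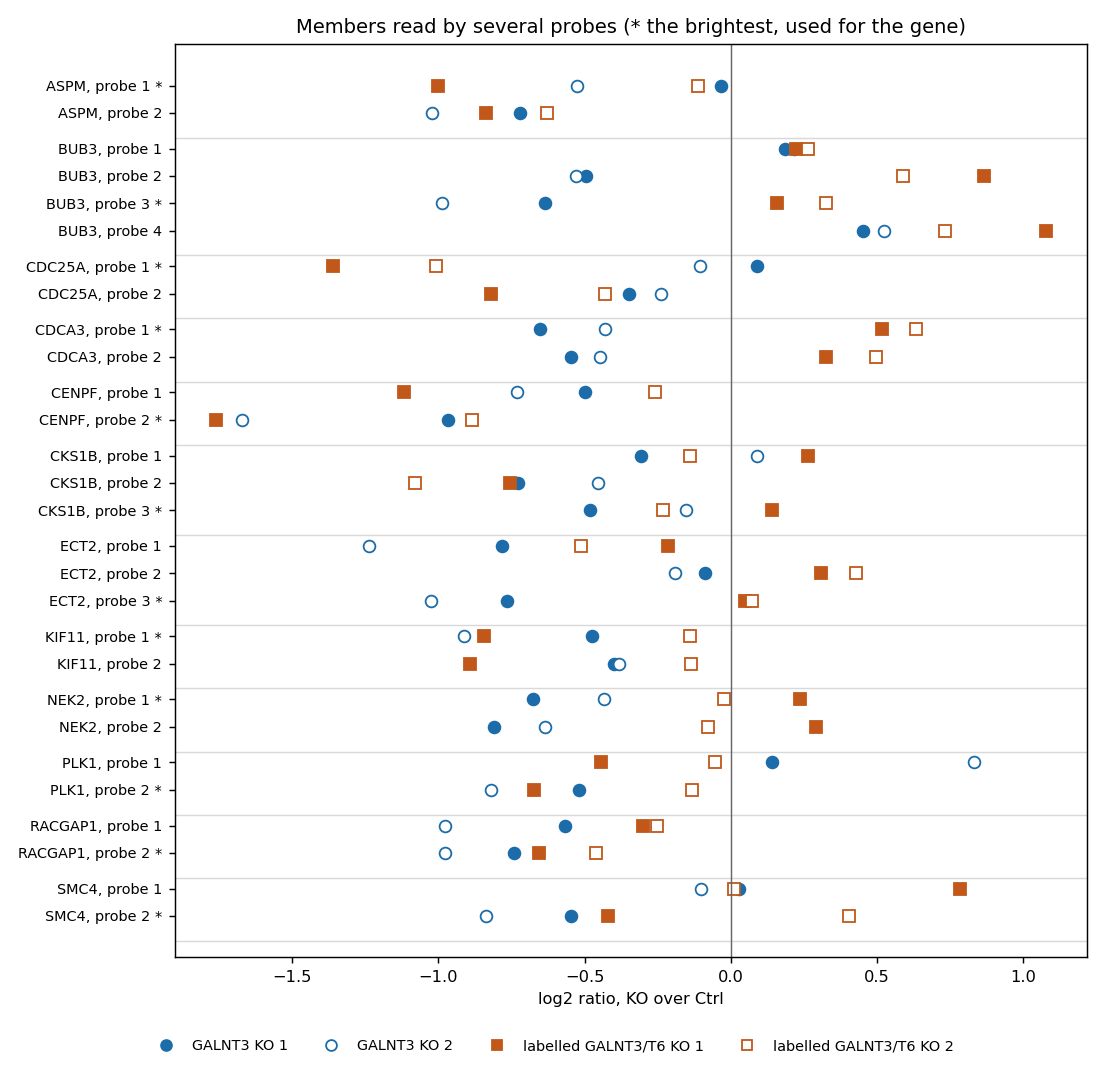
Log2 ratio of KO over Ctrl on each array for every probe of the 12 members with several probes, numbered by position, with an asterisk at the brightest probe, which stands for the gene. Circles are GALNT3 KO and squares the GALNT3/T6 KO-labelled arrays, filled for replicate 1 and open for replicate 2. The probes of CDCA3 and RACGAP1 lie together, while those of BUB3 and PLK1 fall on both sides of 0 in GALNT3 KO.

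Of 114 other genes of the same machinery, on 6 lists, 27 were lower in GALNT3 KO (23.7%, against 6.42% of all genes), 0 were higher (against 4.78%) and 87 were not called, with a median of -0.41. At an unadjusted p of at most 0.05, 58 were lower and 4 higher, beside 4653 and 5063 of all 27309 genes. Set against Ctrl, the GALNT3/T6 KO-labelled arrays had 22 higher (19.3%, against 24.8% of all genes) and 47 lower (41.2%, against 23.1%). The difference from GALNT3 KO was called higher for 22 (19.3%) and lower for 15 (13.2%), against 11.8% of all genes each way. Among the 36 other kinetochore and centromere genes, 11 were lower in GALNT3 KO, and 8 were higher and 14 lower on the other arrays. Of the 21 other spindle and cytokinesis genes 6 were lower in GALNT3 KO, and against GALNT3 KO 7 were higher on the GALNT3/T6 KO-labelled arrays and 0 lower (3 lower at an unadjusted p of at most 0.05). The cohesin and condensin II list of 14 had 1 lower in GALNT3 KO and 7 lower on the other arrays. Of 20 genes of the APC/C and mitotic exit, 2 were lower in GALNT3 KO, and 3 were higher and 7 lower on the other arrays. Of 12 genes that control mitotic entry these counts were 4, 4 and 5, and of 11 genes of MuvB and its partners they were 3, 2 and 6.

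Of the single genes of these lists that are described next, CEP55 had the opposite calls. CEP55, which recruits the abscission machinery to the midbody, had -1.01 and -1.08 in GALNT3 KO and 1.74 and 1.94 on the GALNT3/T6 KO-labelled arrays, a difference of 2.89 (adjusted p = 5.54e-04). SKA1 and SKA3 are subunits of 1 kinetochore complex and separated on the GALNT3/T6 KO-labelled arrays. SKA1 had 1.88 and 1.89 there and SKA3 had -1.60 and -1.57 (adjusted p = 2.09e-04 and 3.78e-04). Both were at -0.29 to -0.45 in GALNT3 KO and not called. CKAP2L, a spindle protein, had -1.03 and -1.01 in GALNT3 KO (adjusted p = 0.015) and 0.01 and -0.18 on the others. E2F4, a partner of MuvB in quiescent cells, had -0.55 and -0.59 in GALNT3 KO and -1.64 and -1.52 on the others (adjusted p = 3.44e-04). CDC16, an APC/C subunit, had -1.34 and -1.37 on those arrays and differed from GALNT3 KO by -0.99 (adjusted p = 0.0056). CCNA1, an A-type cyclin of the germ line, had 3.30 and 3.70 on the GALNT3/T6 KO-labelled arrays. It passed the filter through those arrays alone, where both channels, Ctrl included, were well above background. No p-value is given for it, because the test pools the spread of arrays where it was dim. Neither channel of the GALNT3 KO arrays had it well above background, so the KO channels differed at least 14.1-fold between the groups, the mean of the bright arrays being set against the lowest signal well above background (or the probe's own, where higher) on each dim array. No gene of these lists was called higher in GALNT3 KO, where TFDP2 (0.34) and CENPO (0.30) came nearest (adjusted p = 0.076 and 0.081).

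The list of 49 genes of DNA replication and S phase gives a comparison within the cell cycle. In GALNT3 KO 11 of them were lower (22.4%, against 6.42% of all genes) and 1 higher (2.0%, against 4.78%), with a median of -0.47, while 22 of the 57 mitotic genes were lower with a median of -0.58. On the GALNT3/T6 KO-labelled arrays 22 of the 49 were lower (44.9%, against 23.1% of all genes) and 4 higher (8.2%, against 24.8%), with a median of -0.50, beside 13 lower and 11 higher of the 57 mitotic genes, with a median of -0.04. Against GALNT3 KO 5 were higher (10.2%) and 8 lower (16.3%), with 11.8% of all genes each way, where the mitotic genes had 20 and 2. The difference between the lists was not tested. Replicate 2 of the GALNT3/T6 KO-labelled arrays had the higher median here as well (-0.24 against -0.80).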

How the data were processed

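Total RNA of 4 KO clones was measured on 4 two-color Agilent arrays of 1 slide. The authors deposited scanner files with spot intensity for each channel and a log10 ratio of KO (Cy5) over Ctrl (Cy3) per spot, and the deposited value table holds these log10 ratios. Extraction was made with Feature Extraction 10.7.3.1 per the file headers (the submitters' processing notes name 8.5.1.1), with probe positions on hg19. From the intensities, background was corrected by normexp (offset 50), loess within arrays balanced the dyes, and spots of a probe were averaged. Probes had to be well above background in a channel on both arrays of some group, and the brightest of a gene's remaining probes stood for it (27309 genes). Of 41000 probes 28078 were named through their accession, the rest by the file's symbol. limma 3.58.1 (R 4.3.3) fitted a mean per group over the 4 arrays, with eBayes and Benjamini-Hochberg adjustment over all genes. The test against 0 leaves out the spread of the Ctrl. Without a dye swap a constant dye effect cannot be told apart from a change against Ctrl, but cancels between the groups. On simulated data for the GALNT3/T6 KO-labelled arrays against Ctrl (27309 genes) 89% of genes with a log2 change of 1 and 100% with a change of 2 were recovered. The simulation raised 200 genes on those arrays, with noise independent between genes. It had no split shared by many genes between clones and no change in GALNT3 KO, so it gives no recovery rate for that comparison.

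The members, gene lists, tests and 17 of 18 alternatives were fixed in writing, but chosen with earlier results of these data known. Named were MKI67, CDK1, CCNB1, FOXM1 and MYBL2, in each machinery list the 2 largest changes among the called members per comparison (or the lowest adjusted p), members with opposite calls, and from the other lists the 2 lowest adjusted p in each direction. CKS2, CDC25C, CDCA8, UBE2C, CDC20, KIF4A, HJURP, CENPE, NDC80, DLGAP5, NCAPD2, CKS1B, ASPM, PLK1, GAPDH and GUSB were added after their values were seen. Over all genes, 42.7% of the calls in GALNT3 KO were higher, and 23.5% with median centring in place of loess. Promoters came from RefSeq (GRCh38.p14), from 250 bases before to 50 after a start.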

Additional observations from a re-analysis of the deposited data

Results flagged for a closer look

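The effect over Ctrl differed between the groups by limma's test of the difference for 22 members, 20 of them higher on the GALNT3/T6 KO-labelled arrays than in GALNT3 KO. On the log2 scale the differences among genes of division and the spindle were 2.51 for ANLN, 0.95 for ECT2, 1.59 for HMMR, 0.94 for NUSAP1 and 0.87 for DLGAP5. For kinesins and kinetochore genes they were 1.72 for KIF18A, 1.62 for KIF20A, 1.42 for NUF2, 1.09 for CENPA and -0.83 for CENPE. For checkpoint genes and kinases they were 1.23 for PTTG1, 1.15 for BUB1, 1.05 for BUB3, 0.80 for UBE2C, 0.90 for AURKA, 0.87 for TTK and 0.66 for NEK2. In the CDK1 module they were 1.12 for CDCA3, 1.01 for CDC25B, 0.86 for CCNB2, 0.63 for CDK1 and -1.18 for CDC25A. The 4 probes of BUB3 gave differences from 0.04 to 1.24.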

How the results depend on the processing

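No called change of a member reversed its direction under an alternative that was run, but many alternatives could not reverse it. The t-test, both replicate blocks and the fit of only the 2 arrays keep the group means of the main fit. Leaving out an array of the other group also keeps a mean against Ctrl. The 68 called changes of members were refitted 1134 times in all, and were called again 860 times and lost their call 274 times. Refits that leave 1 array in a group are among these. Counts of members called lower in GALNT3 KO went from 22 to 4 with Agilent's own log ratios and with the deposited value table, to 44 (with 1 higher) when only the 2 arrays of the group were fitted, and to 0 with the replicate block. Leaving out a GALNT3 KO array leaves 1 in the group, so the calls of that fit decide nothing about the members. Of all 27309 genes, 1754 were lower in GALNT3 KO in the main fit and 397 with Agilent's own log ratios. There were 4898 with only the 2 arrays of the group and 51 with the replicate block. On the GALNT3/T6 KO-labelled arrays, leaving out an array gave 8 to 19 higher and 8 to 24 lower, the paper's criterion gave 6 higher, and only the 2 arrays of the group gave 8 lower. Between the groups it gave 2 to 33 higher and 0 to 7 lower, and the 2 lower members became 1 with median centring and with the replicate block, and 4 with the paper's criterion. The methods' t-test, which the study used outside its arrays, called 0 members in any comparison after adjustment. Of all 27309 genes it called 0 in GALNT3 KO and 1 lower on the GALNT3/T6 KO-labelled arrays. Between the groups it called 24 genes higher and 9 lower. Unadjusted, 10 members were lower in GALNT3 KO, and 5 were higher and 2 lower on the GALNT3/T6 KO-labelled arrays. Between the groups 17 members were higher and 1 lower, unadjusted. Replicate numbers are only numbers here, since the deviations of same-numbered arrays correlated at -0.238, and the block left 10 higher and 12 lower members on the GALNT3/T6 KO-labelled arrays and 15 higher between the groups. The crossed pairing, chosen after seeing the data, gave 29 lower in GALNT3 KO, 13 higher and 19 lower on the GALNT3/T6 KO-labelled arrays, and 22 higher and 4 lower between the groups. The other alternatives (no background correction, offset 16, Aquantile, both changes of the filter, and the mean of all probes) stayed within 1.5 times each count. Why counts moved was not tested. For NEK2 and CENPF the adjusted p in GALNT3 KO was just under the threshold (0.0496 and 0.0499). Members were all well above background, so signal limits none of these values.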
